A study of Mus musculus with 8 samples.

Results

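The genes described here are 8 transcription factors that steer thymocytes towards the CD4 or the CD8 lineage (Zbtb7b, Runx1, Runx3, Tox, Gata3, Tcf7, Lef1 and Myb) and 2 genes of cytotoxic granules (Gzma and Prf1). They were taken by symbol, and all 10 were found among the 23278 entries of each deposited table. The tables come from RNA sequencing of sorted C57BL/6 thymocytes in 4 groups of 2 libraries, 8 in all, which asked how loss of the histone deacetylase Hdac3 alters expression in CD4+CD8+ double-positive (DP) cells. The groups were Hdac3KO DP2, WT DP2, Hdac3KO DP1 and WT DP1. All cells were GFP+ CD4+CD8+. DP2 cells were CD5hi with intermediate TCRb, and DP1 cells were CD5lo with low TCRb. Hdac3KO animals carried floxed Hdac3 alleles (Hdac3F/F) and LCK-Cre, a Cre driven by a T-lineage promoter, and WT animals were Hdac3+/+. What marks cells with GFP, whether the WT animals carried Cre, and the animals' age are not given in the sources used here. RNA pools were used, so each value stands for a pool and not for 1 animal.

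Each deposited table compares a pair of groups and gives 1 FPKM per gene and group (sequenced fragments scaled for transcript length and library size), with no value per library. The spread between libraries therefore cannot be shown, the depth is unknown, and only the p-values and q-values of the authors' deposited tables carry it. Whether the 2 libraries of a group came from different animals is not stated, so this spread may be technical. The threshold for calling a gene was a deposited q of at most 0.05. A recomputed q, given where a table was re-scaled or where effects were compared, comes from an approximate normal test adjusted over all genes tested, since 1 value per group allows no resampling of libraries. The exception is the setting with no filter on low values, where the deposited p was adjusted over all 23278 entries, untested ones included. The standard error (SE, after ±) of a log2 change was derived from that change and its deposited p, and it is an upper bound where the p is the smallest listed, 5e-05. Every group stands in 2 tables that were scaled separately, so changes were computed and tested only within a table. The median FPKM ratio of a group between its 2 tables (stage over genotype) ran from 0.908 to 1.13, and where levels of more than 1 table are set side by side they are a description. In bulk RNA, fewer cells that express a gene and less RNA per cell cannot be told apart.

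Hdac3 was lower in Hdac3KO than in WT in the authors' deposited tables, at 15.4 and 29.7 FPKM in DP2 (q = 0.0131) and at 11.7 and 38.1 FPKM in DP1 (q = 0.000879). All 9 DP markers were at 9.19 FPKM or more in every group. The sexes of the animals are not labelled, but in the authors' deposited table of DP2 the X-inactivation RNA Xist had 139 FPKM in Hdac3KO and 0.243 FPKM in WT. Kdm5d, a gene of the Y chromosome, had 0.322 FPKM in Hdac3KO DP2 and 34.6 FPKM in WT DP2 there. In DP1 the authors' deposited table gave Xist at 208 FPKM in Hdac3KO and 0.0945 FPKM in WT. Genotype and sex thus cannot be told apart in either genotype comparison. All 10 genes described here lie on autosomes. Log2 changes followed transcript length in 2 of the 4 tables. For Hdac3KO against WT in DP1 their median was -0.68 for transcripts under 1000 bases and 0.30 for those of 5000 bases or more, and for DP2 against DP1 in WT it was -0.81 and 0.02. The median gene with at least 10 FPKM in both groups lay at 0.12 for genotype in DP2, -0.11 for genotype in DP1, -0.01 for stage in Hdac3KO and -0.33 for stage in WT, and calls that end relative to it are named below.

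After positive selection a DP thymocyte becomes a CD4 helper or a CD8 cytotoxic cell. ThPOK, the product of Zbtb7b, fixes the CD4 fate, and Runx3 fixes the CD8 fate, and each represses the other. Tox, Gata3, Myb and the HMG-box factors TCF-1 and LEF1 act before or together with ThPOK on the CD4 side. Granzyme A and perforin, made by mature cytotoxic cells, are the protease and the pore former of their granules.

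The RefSeq promoter windows matched 9 of the 10 genes, all but Tox, with 16 transcription start sites. The windows of Lef1, Gzma and Prf1 are shown because Lef1 has the called difference between stages described below and Gzma and Prf1 are the granule genes. They are the 250 bases upstream of a RefSeq start on GRCm38.p6, written 5′ to 3′ on the gene's strand. Capitals mark matches, on either strand, to 4 motifs of the factors in question: TGTGGT for RUNX, CTTTGA for TCF and LEF, AGATAA for GATA and AACNG for MYB.
Lef1, chr3:131110047-131110296, plus strand: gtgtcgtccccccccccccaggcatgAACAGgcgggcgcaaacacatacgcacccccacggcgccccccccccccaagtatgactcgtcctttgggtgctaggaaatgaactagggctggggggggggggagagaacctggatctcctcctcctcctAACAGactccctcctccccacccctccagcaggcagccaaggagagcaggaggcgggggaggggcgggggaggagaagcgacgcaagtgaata
Gzma, chr13:113100982-113101231, minus strand: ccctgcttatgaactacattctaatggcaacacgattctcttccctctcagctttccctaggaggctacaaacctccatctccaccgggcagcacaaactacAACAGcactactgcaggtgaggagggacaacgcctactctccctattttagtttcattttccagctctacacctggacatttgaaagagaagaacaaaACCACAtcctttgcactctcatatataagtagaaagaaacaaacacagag
Prf1, chr10:61297586-61297835, plus strand: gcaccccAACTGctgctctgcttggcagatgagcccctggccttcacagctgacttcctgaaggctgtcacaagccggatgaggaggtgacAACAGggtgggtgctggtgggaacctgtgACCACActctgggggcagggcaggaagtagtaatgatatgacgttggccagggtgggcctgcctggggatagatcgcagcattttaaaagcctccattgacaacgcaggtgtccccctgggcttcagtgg

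The Gzma and Prf1 windows each held 1 match to the RUNX motif (ACCACA on the strand shown), which 14% of the 32851 windows of all genes held. Lef1 has 4 starts in the table, and the window of its first start, shown here, held 2 matches to the MYB motif, which is short and was present in 74.2% of windows. TCF and LEF matches (13.8% of windows) and GATA matches (9.99%) were found in none of the 3. The window of the fourth Lef1 start held 2 TCF and LEF matches, and no other of the 16 windows held any. Among the other genes, the first Runx3 start held 2 RUNX matches and the second Zbtb7b start held 1, in which the RUNX and MYB matches overlap. A match describes the letters only.

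Tox, Gata3 and Lef1 were higher in DP2 than in DP1 in WT cells, and of these Tox and Lef1 were lower in Hdac3KO DP2 than in WT DP2. Gzma was lower in DP2 than in DP1 in both genotypes. In WT this call ended without the length trend (recomputed q = 0.111), in a test whose SE is an upper bound. Runx1 was higher in Hdac3KO DP1 than in WT DP1, a call that ended without the length trend (recomputed q = 0.0662). Prf1 was higher in Hdac3KO DP2 than in WT DP2, a call that ended when a fit on transcript length was removed (recomputed q = 0.0547). The DP2 genotype changes did not follow length (medians 0.11 under 1000 bases and 0.14 at 5000 bases or more). The fit thus took off a nearly even shift there. Zbtb7b and Runx3, which fix the CD4 and the CD8 fate, were low in all groups and were called in none of the comparisons. Tcf7 and Myb were abundant and were likewise not called.

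**Figure D1:**
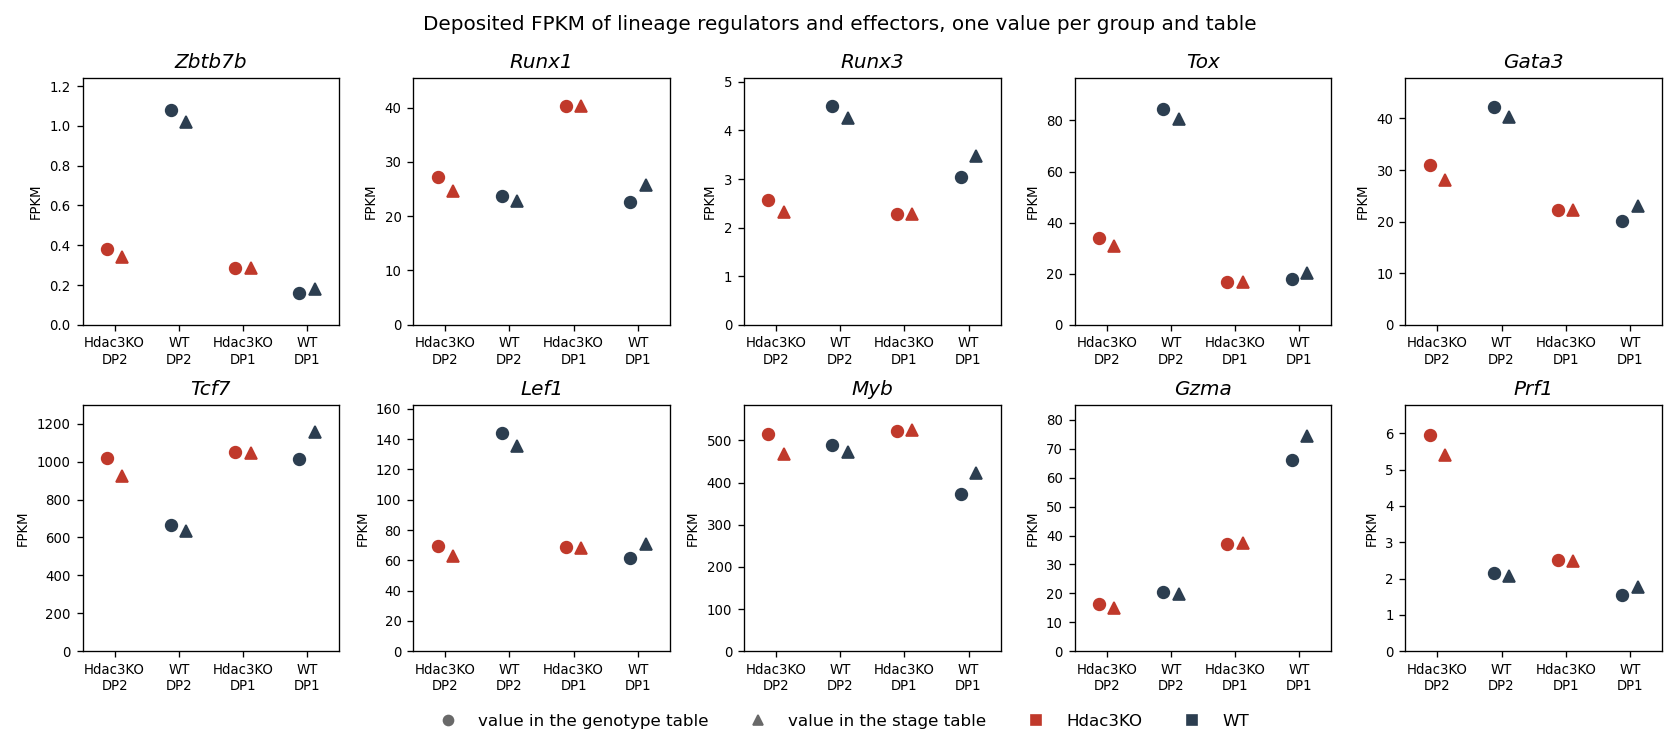
Deposited FPKM (vertical axes, from 0) of the 10 genes in the 4 groups, with circles for the value in a genotype table and triangles for the value of the same group in a stage table, each the authors' single value per group. Tox, Gata3 and Lef1 stand highest in WT DP2, Gzma in WT DP1, Prf1 in Hdac3KO DP2 and Runx1 in Hdac3KO DP1.

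Among 10851 genes tested for stage in WT, 22.3% were called in the authors' deposited table, 5.56% higher and 16.8% lower in DP2. All 10 genes were tested there, and 3 were called higher and 1 lower. In Hdac3KO the stage table called 6.43% of 10231 tested genes, 1.78% higher and 4.65% lower, and of the 9 genes tested (all but Zbtb7b) 1 was called higher and 2 lower. The genotype table of DP2 called 10.8% of 10674 genes, 6.44% higher and 4.32% lower in Hdac3KO, and of the same 9 genes 1 was called higher and 2 lower. The genotype table of DP1 called 23.6% of 10511 genes, 10.7% higher and 12.9% lower, against 1 higher and 1 lower of the 9. Relative to the median gene the split of all calls was 464 higher and 612 lower for genotype in DP2, 1431 and 941 in DP1, and 1181 and 703 for stage in WT, against 687 and 461, 1120 and 1358, and 603 and 1818 as deposited. In DP1 the share of the 9 lay near that of all genes, and none of these counts was tested as a property of the list. Their median log2 change was -0.32 for genotype in DP2 and 0.15 for genotype in DP1, where the medians of all tested genes were 0.10 and -0.10. For stage it was -0.11 in Hdac3KO and 0.26 in WT, against 0.01 and -0.27 over all tested genes.

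Zbtb7b (chromosome 3, 89377644 to 89394776, minus strand, in GENCODE M21 on mm10) encodes ThPOK. It stood at 0.379 FPKM in Hdac3KO DP2 and 1.08 FPKM in WT DP2, and at 0.287 FPKM in Hdac3KO DP1 and 0.158 FPKM in WT DP1, in the authors' deposited genotype tables. WT DP2 had the highest of these values, about 1 FPKM. Cuffdiff tested the gene only for stage in WT, where it was at 1.02 FPKM in DP2 and 0.181 FPKM in DP1, 2.50 ± 1.09 on the log2 scale, which missed the threshold (q = 0.0815 in the authors' deposited table). On the log2(FPKM + 1) scale that change was 0.77. The antisense transcript Gm15417 overlaps the gene over 2927 bases, and the authors' deposited tables give both under the same locus. Gm15417 was at 2.76 FPKM in Hdac3KO DP2 and 7.86 FPKM in WT DP2 in the authors' deposited table, -1.51 ± 0.53 (q = 0.0424). For stage in WT, Gm15417 had 7.46 FPKM in DP2 and 2.19 FPKM in DP1 in the authors' deposited table and did not pass (1.77 ± 0.79, q = 0.0908). The libraries were stranded, but whether strand was used in assigning reads is not given in the sources used here, so how reads of this locus were divided between the pair is not known.

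Tox (chromosome 4, 6686353 to 6991557, minus strand) encodes an HMG-box factor that CD4 lineage development requires. It stood at 33.8 FPKM in Hdac3KO DP2 and 84.3 FPKM in WT DP2, 40.1% of the WT value (-1.32 ± 0.33 on the log2 scale, q = 0.00134 in the authors' deposited table). In DP1 the genotypes were close, at 16.8 FPKM in Hdac3KO and 17.9 FPKM in WT (-0.09 ± 0.25, q = 0.829 in the authors' deposited table), and the sign of that change turned to 0.020 relative to the median gene. Both genotypes had more Tox in DP2 than in DP1. Hdac3KO cells had 30.7 FPKM in DP2 and 16.8 FPKM in DP1 in the authors' deposited table, 1.83-fold higher (0.87 ± 0.23, q = 0.00406). WT cells had 80.7 FPKM in DP2 and 20.3 FPKM in DP1, 3.97-fold higher (1.99 ± 0.49, q = 0.000835 in the authors' deposited table).

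Lef1 (chromosome 3, 131110471 to 131224356, plus strand) encodes LEF1, which acts with TCF-1 in DP cells and in CD4 commitment. It stood at 69.8 FPKM in Hdac3KO DP2 and 143.8 FPKM in WT DP2, 48.5% of the WT value (-1.04 ± 0.26, q = 0.00134 in the authors' deposited table). The DP1 values were 68.7 FPKM in Hdac3KO and 61.7 FPKM in WT (0.16 ± 0.24, q = 0.69 in the authors' deposited table). In Hdac3KO, Lef1 had 63.2 FPKM in DP2 and 68.2 FPKM in DP1 and was not called in the authors' deposited table (-0.11 ± 0.21, q = 0.894). In WT it had 135.8 FPKM in DP2 and 70.6 FPKM in DP1, 1.92-fold higher (0.94 ± 0.29, q = 0.0107 in the authors' deposited table). WT DP2 had the higher value in both tables that hold it.

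Tcf7 (chromosome 11, 52252371 to 52283014, minus strand), the gene of TCF-1, was the most abundant of the 10 in FPKM. It stood at 1020.45 FPKM in Hdac3KO DP2 and 665.7 FPKM in WT DP2 in the authors' deposited table (0.62 ± 0.35, q = 0.285). Hdac3KO DP1 had 1049.9 FPKM and WT DP1 1012.6 FPKM (0.05 ± 0.29, q = 0.923 in the authors' deposited table). For stage in WT it had 631.5 FPKM in DP2 and 1155.4 FPKM in DP1, a difference past no threshold (-0.87 ± 0.41, q = 0.113 in the authors' deposited table). The stage values in Hdac3KO were 924.7 FPKM in DP2 and 1043.4 FPKM in DP1 (-0.17 ± 0.24, q = 0.839 in the authors' deposited table). WT DP2 had the lower value in both tables that hold it, where the related Lef1 had the higher.

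Gata3 (chromosome 2, 9857078 to 9890034, minus strand) encodes a zinc finger factor needed for CD4 cells upstream of ThPOK. In the WT stage table it had 40.3 FPKM in DP2 and 23.0 FPKM in DP1, 1.75-fold higher in the authors' deposited table (0.81 ± 0.28, q = 0.0226). In Hdac3KO it had 28.1 FPKM in DP2 and 22.2 FPKM in DP1 and was not called (0.34 ± 0.21, q = 0.479 in the authors' deposited table). Between genotypes, DP2 had 31.0 FPKM in Hdac3KO and 42.3 FPKM in WT (-0.45 ± 0.24, q = 0.231), and DP1 had 22.4 FPKM in Hdac3KO and 20.2 FPKM in WT (0.15 ± 0.25, q = 0.716), in the authors' deposited tables. Neither genotype difference passed.

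Myb (chromosome 10, 21124935 to 21160984, minus strand) encodes a factor for DP survival that also acts upstream of Gata3. Its values lay between 373 and 523.8 FPKM over the 4 separately scaled tables. DP2 had 514.7 FPKM in Hdac3KO and 489.8 FPKM in WT (0.07 ± 0.29, q = 0.922 in the authors' deposited table), a sign that turned to -0.044 relative to the median gene. DP1 had 522.6 FPKM in Hdac3KO and 373 FPKM in WT (0.49 ± 0.27, q = 0.179 in the authors' deposited table). Its stage changes were -0.16 ± 0.22 in Hdac3KO (q = 0.828) and 0.16 ± 0.33 in WT (q = 0.763) in the authors' deposited tables.

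Runx3 (chromosome 4, 135120652 to 135177990, plus strand), the factor of the CD8 fate, was below 5 FPKM in all groups. It stood at 2.57 FPKM in Hdac3KO DP2 and 4.50 FPKM in WT DP2 (-0.81 ± 0.35, q = 0.119 in the authors' deposited table). DP1 had 2.29 FPKM in Hdac3KO and 3.04 FPKM in WT (-0.41 ± 0.30, q = 0.338 in the authors' deposited table). By stage, Hdac3KO had 2.33 FPKM in DP2 and 2.27 FPKM in DP1 (0.03 ± 0.31, q = 0.982), and WT had 4.25 FPKM in DP2 and 3.48 FPKM in DP1 (0.29 ± 0.34, q = 0.578), in the authors' deposited tables. Hdac3KO values were the lower ones at both stages, within differences that did not pass.

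Runx1 (chromosome 16, 92601466 to 92826149, minus strand) represses Cd4 in early thymocytes and supports DP and CD4 cells. It stood at 40.3 FPKM in Hdac3KO DP1 and 22.6 FPKM in WT DP1, 1.78-fold higher (0.83 ± 0.24, q = 0.00518 in the authors' deposited table). Without the length trend this call ended (0.61, recomputed q = 0.0662), and its longest transcript, of 5861 bases, is among those that tended to be higher there. In DP2 the genotypes had 27.2 FPKM in Hdac3KO and 23.7 FPKM in WT (0.19 ± 0.23, q = 0.681 in the authors' deposited table). By stage, Hdac3KO cells had 24.7 FPKM in DP2 and 40.3 FPKM in DP1, and the gene fell by 0.71 on the log2 scale (± 0.21, q = 0.0139 in the authors' deposited table). WT cells had 22.8 FPKM in DP2 and 25.7 FPKM in DP1 (-0.17 ± 0.28, q = 0.702 in the authors' deposited table), 0.16 relative to the median gene.

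**Figure D2:**
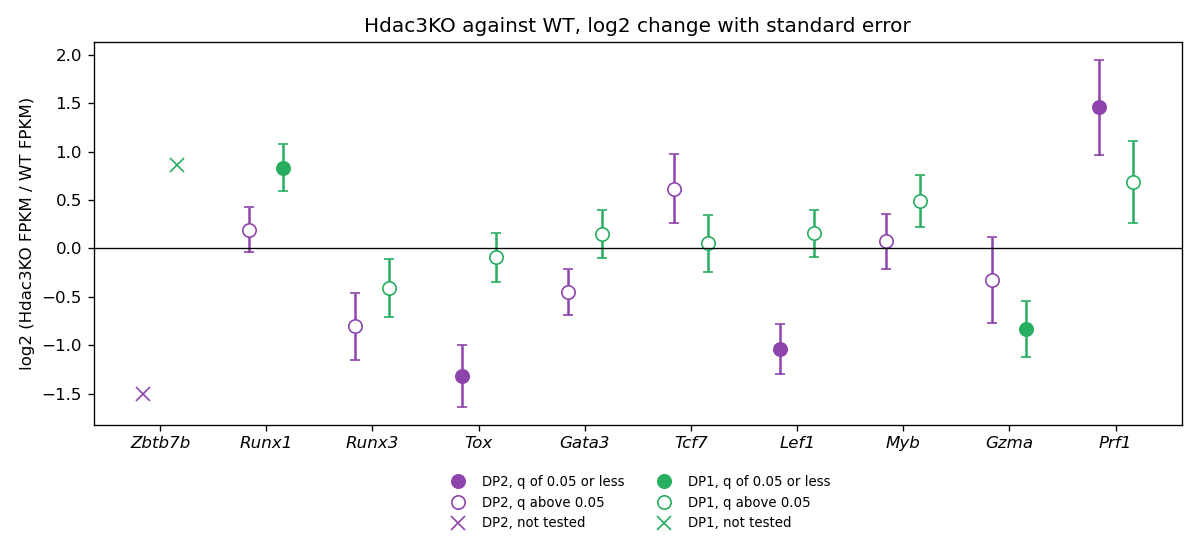
Log2 change of Hdac3KO over WT (vertical axis) for the 10 genes in DP2 and DP1, with bars of ± 1 SE derived from the deposited p, filled points for a deposited q of 0.05 or less and crosses for genes not tested. In DP2 Tox (-1.32) and Lef1 (-1.04) lie lowest among the tested genes and Prf1 (1.46) highest, and in DP1 Runx1 (0.83) and Gzma (-0.83) are the called genes.

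Gzma (chromosome 13, 113093825 to 113100981, minus strand) encodes granzyme A. It stood at 14.8 FPKM in DP2 and 37.3 FPKM in DP1 in Hdac3KO, 2.52-fold lower in DP2 (-1.33 ± 0.39, q = 0.0131 in the authors' deposited table). In WT it had 19.7 FPKM in DP2 and 74.5 FPKM in DP1, 3.79-fold lower in DP2 (-1.92 ± 0.47, q = 0.000835 in the authors' deposited table). Between genotypes, DP1 had 37.1 FPKM in Hdac3KO and 66.0 FPKM in WT (-0.83 ± 0.29, q = 0.0243), and DP2 had 16.3 FPKM in Hdac3KO and 20.3 FPKM in WT (-0.32 ± 0.45, q = 0.732), in the authors' deposited tables. The longest Gzma transcript has 996 bases, so it falls among the short genes that were lower in WT DP2 and in Hdac3KO DP1. With the length trend removed, the genotype call in DP1 ended (-0.17, recomputed q = 0.757), as did the stage call in WT (-1.09, recomputed q = 0.111), while the stage call in Hdac3KO stayed (-1.35, recomputed q = 0.011). The WT stage change had the smallest listed p, 5e-05, so its SE is an upper bound. Whether that call would end with a smaller SE is not known. The DP1 genotype call also ended relative to the median gene (-0.72, recomputed q = 0.0576). It ended too with no filter on low values, where untested entries join the adjustment and raise q (recomputed q = 0.0539).

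Prf1 (chromosome 10, 61297833 to 61304680, plus strand) encodes perforin. It stood at 5.94 FPKM in Hdac3KO DP2 and 2.17 FPKM in WT DP2, 2.75-fold higher (1.46 ± 0.49, q = 0.0333 in the authors' deposited table). This call ended relative to the median gene (1.34, recomputed q = 0.0583) and when a fit on transcript length was removed (1.35, recomputed q = 0.0547). The DP2 genotype changes did not follow length, so both settings took off nearly the same shift. The call also ended with no filter on low values, where untested entries join the adjustment and raise q (recomputed q = 0.0725). DP1 had 2.50 FPKM in Hdac3KO and 1.55 FPKM in WT (0.69 ± 0.42, q = 0.235 in the authors' deposited table). By stage, Hdac3KO had 5.39 FPKM in DP2 and 2.49 FPKM in DP1 (1.11 ± 0.39, q = 0.0642), and WT had 2.08 FPKM in DP2 and 1.77 FPKM in DP1 (0.23 ± 0.49, q = 0.778), in the authors' deposited tables. In both tables that hold Hdac3KO DP2, this group had the higher Prf1 and the lower Gzma value, though no comparison called both genes.

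Natural killer (NK) and other innate-like cells of the thymus also make granule proteins. The summed level of 9 NK, innate and γδ T markers was 4.47 FPKM in Hdac3KO DP2, 3.51 FPKM in WT DP2, 2.34 FPKM in Hdac3KO DP1 and 1.35 FPKM in WT DP1, in the genotype tables. None of the 9 markers reached 1 FPKM in either DP1 group, where Gzma was highest, and only Tyrobp did in DP2. Klra8 was listed at 0 in all groups, and Ncr1, the NKp46 gene, was listed at 0 in both WT groups. The sum was higher in Hdac3KO DP2 than in WT DP2, as was Prf1, but its members went both ways and none was tested. Tyrobp (1.855 FPKM in Hdac3KO DP2 and 1.997 FPKM in WT DP2) and Sox13 (0.164 and 0.662 FPKM) were lower in Hdac3KO DP2. All others but Klra8 were higher there, Klrb1c (0.858 and 0.215 FPKM) and Klre1 (0.362 and 0 FPKM) by the most. The part of these cells in the Prf1 and Gzma results was not tested.

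**Figure D3:**
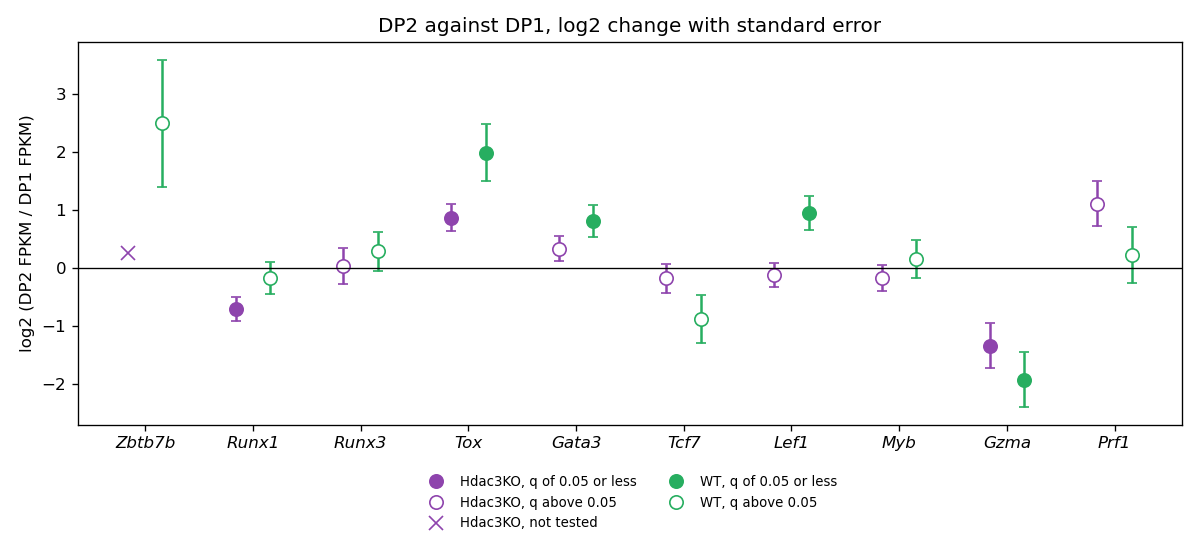
Log2 change of DP2 over DP1 (vertical axis) for the 10 genes in Hdac3KO and WT, with bars of ± 1 SE derived from the deposited p, filled points for a deposited q of 0.05 or less and a cross for a gene not tested. Tox is raised in both genotypes (0.87 and 1.99), Gzma is lowered in both (-1.33 and -1.92), and Lef1 is raised in WT (0.94) but lies at -0.11 in Hdac3KO.

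Lef1 was the 1 gene of the 10 whose genotype effect was called different between the stages by a test of the difference itself. Its genotype effect in DP2 minus that in DP1 was -1.20 ± 0.35 on the log2 scale (recomputed q = 0.0429, normal test over 10144 genes, of which 2.08% were called). The stage tables, made from the same libraries, gave a difference of -1.05 ± 0.36, which missed the threshold (recomputed q = 0.0688, 3.13% of 9969 genes called). The difference for Tox was as large, -1.23 ± 0.41 from the genotype tables (recomputed q = 0.0759) and -1.12 ± 0.54 from the stage tables (recomputed q = 0.201), and did not pass. The DP2 genotype changes of Tox and Lef1 both had the smallest listed p, 5e-05. Their SEs are therefore upper bounds that grow with the change, and the calls do not set Lef1 apart from Tox. Gata3 (-0.60 ± 0.34, recomputed q = 0.34) and Runx1 (-0.64 ± 0.34, recomputed q = 0.283) had smaller differences of the same sign that did not pass. Differences above 0 were found for Tcf7 (0.56 ± 0.46, recomputed q = 0.528), Gzma (0.51 ± 0.53, recomputed q = 0.643) and Prf1 (0.77 ± 0.65, recomputed q = 0.54), and none of them passed. That of Gzma turned to -0.23 without the length trend. Zbtb7b could not be tested in this way.

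**Figure D4:**
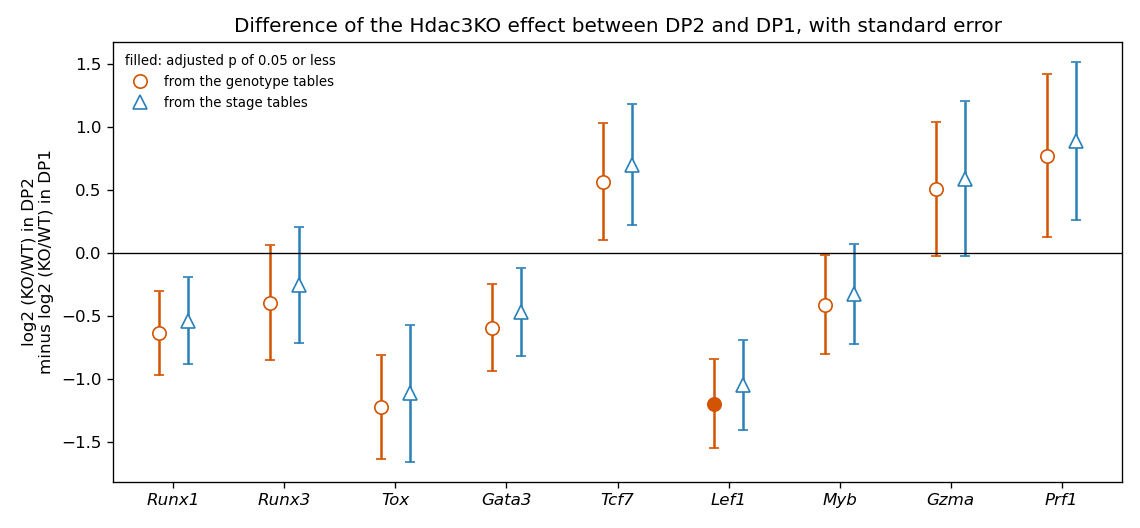
Genotype effect (log2 Hdac3KO over WT) in DP2 minus that in DP1 (vertical axis) for the 9 genes tested, with bars of ± 1 SE, computed from the genotype tables (circles) and from the stage tables (triangles), which share libraries. Lef1 and Tox lie lowest by both routes, and the Lef1 value from the genotype tables (-1.20) is the filled one.

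Tox and Gzma were called in the most tables, 3 of 4 each. Over the 4 log2 changes, which share their groups, the genes nearest to Tox among 8933 were Gpr65, a gene for a proton-sensing receptor (distance 0.22 on the log2 scale), Gm15417 (0.44), the antisense transcript at the Zbtb7b locus, and the sialyltransferase gene St3gal2 (0.51). Gpr65 was at 8.90 FPKM in Hdac3KO DP2 and 19.6 FPKM in WT DP2 in the authors' deposited table (q = 0.0544). Nearest to Gzma were the mitotic kinase gene Aurka (0.15) and the histone genes Hist1h3e (0.16) and Hist1h2be (0.17). Hist1h2be itself was called in none of the comparisons (q from 0.24 to 0.865 in the authors' deposited tables). Aurka had 17.2 FPKM in DP2 and 68.0 FPKM in DP1 in WT (q = 0.000835 in the authors' deposited table). The histone genes have near-identical copies, and how reads were divided among these is not known.

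Genes related to the 10 by family or partnership moved in both directions. Of 20 such genes, 16 were tested in DP2, where 3 were higher in Hdac3KO and 0 lower, with a median log2 change of 0.09 against 0.10 over all tested genes. The higher ones were Cbfa2t3, a corepressor gene of the ETO family (14.1 FPKM in Hdac3KO and 4.69 FPKM in WT, q = 0.00134), Tle2 of the Groucho corepressors (13.6 and 4.19 FPKM, q = 0.00134) and Zbtb7a (16.4 and 9.27 FPKM, q = 0.00805), a paralog of Zbtb7b, in the authors' deposited table. In DP1 16 were tested, and 1 was higher (Tle2) and 2 lower, Mybl2 and the GATA cofactor gene Zfpm1 (7.56 FPKM in Hdac3KO and 15.2 FPKM in WT, q = 0.000879 in the authors' deposited table), with a median of 0.26. Relative to the median gene 2 were higher and 1 lower. For stage in WT 18 were tested, with 2 higher in DP2, Tox2 and Tle4, and 3 lower, Cbfa2t3, Zfpm1 and Mybl2 (median -0.22). The Zfpm1 call for stage in WT ended relative to the median gene. Tox2, a paralog of Tox, had 5.17 FPKM in DP2 and 0.808 FPKM in DP1 in WT (2.68 on the log2 scale, q = 0.000835 in the authors' deposited table). In Hdac3KO it had 2.05 FPKM in DP2 and 1.43 FPKM in DP1 and was not called (q = 0.699 in the authors' deposited table). For stage in Hdac3KO 0 of 17 were higher and 2 lower, Mybl1 and Mybl2 (median -0.07).

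Other regulators of the choice gave 3 higher and 2 lower of 18 tested for genotype in DP2 (median 0.28). Socs1, an inhibitor of cytokine signals (41.0 FPKM in Hdac3KO and 21.6 FPKM in WT, q = 0.00739), Rara and Irf1 were higher in Hdac3KO in the authors' deposited table. Egr2, a TCR-induced factor (5.36 FPKM in Hdac3KO and 19.3 FPKM in WT, q = 0.00134), and Il7r, the interleukin-7 receptor (0.653 and 10.2 FPKM, q = 0.0159), were lower in the authors' deposited table. In DP1 0 of 17 passed by Cuffdiff, with 5 at an unadjusted p under 0.05 (median 0.03). For stage, 2 of 16 were higher in Hdac3KO, Egr2 and Irf1, and 0 lower (median 0.05). In WT 2 of 18 were higher, Egr2 and Il7r, and 3 were lower, Socs1, Smarca4 and Tcf3 (median -0.36), though relative to the median gene none of the lower calls held.

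Other cytotoxic effectors were mostly too low to test. Of 18, 8 were tested in DP2 and 7 in DP1 for genotype, with 0 called by Cuffdiff at either stage and 2 and 1 at an unadjusted p under 0.05 (medians 0.08 and -0.14). For stage in Hdac3KO 1 of 7 was higher, Ctsw, which encodes cathepsin W (9.25 FPKM in DP2 and 3.11 FPKM in DP1, q = 0.0303 in the authors' deposited table), and 0 were lower (median 0.24). For stage in WT 1 of 8 was higher, Stx11, and 1 lower, Rab27a (median 0.09). Relative to the median gene 2 were higher and 0 lower, and without the length trend 3 were higher and 0 lower. Gzmb, granzyme B, stayed under 1 FPKM in all groups, and Ifng was listed at 0 in all but WT DP1.

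Of 9 helper-side genes, 4 were tested for genotype in DP2, where 1 was lower, Cd40lg, which encodes the ligand by which helper cells activate B cells, at 3.60 FPKM in Hdac3KO DP2 and 24.7 FPKM in WT DP2 (-2.78 on the log2 scale, q = 0.00245 in the authors' deposited table). It was at 0.46 FPKM in Hdac3KO DP1 and listed at 0 in WT DP1. In DP1 0 of 3 passed by Cuffdiff, nor did any reach an unadjusted p under 0.05 (median 0.41). For stage in Hdac3KO 1 of 3 was higher, the costimulatory receptor gene Icos (8.01 FPKM in DP2 and 3.65 FPKM in DP1, q = 0.0356 in the authors' deposited table), and 0 were lower (median 0.55). In WT 3 of 4 were higher, Cd40lg, Cd28 and Icos.

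The coreceptor genes whose balance these factors set gave 2 higher and 0 lower of 3 for genotype in DP2, with Cd4 at 392.5 FPKM in Hdac3KO and 207.9 FPKM in WT (q = 0.0183) and Cd8b1 at 1383.5 FPKM in Hdac3KO and 638.9 FPKM in WT (q = 0.00134 in the authors' deposited table; list median 0.92). For stage in WT both were lower in DP2, calls that ended relative to the median gene (median -1.05), and 0 of 3 passed for stage in Hdac3KO or for genotype in DP1, with 0 at an unadjusted p under 0.05 (medians -0.08 in both).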

How the data were processed

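The authors deposited 4 tables in Cuffdiff's gene format, 1 per pair of groups, whose FPKM values (1 per group, over 2 libraries) and p-values and q-values are used here as deposited. Per the submitters' processing notes, Trimmomatic 0.32, TopHat2 2.0.11, Cuffdiff 2.1.1 and mm10 were used; the annotation, the normalisation settings and the use of strand are not given in the sources used here. Per the labels' protocols, ribosomal RNA was removed and stranded libraries were made from RNA pools. Samples were grouped by their labelled genotype and sort. The unit FPKM was inferred from the table format.

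Log2 changes were recomputed from the deposited FPKM. Dividing the size of a change by the normal quantile of its deposited p gave its SE. The genotype effect in DP2 minus that in DP1 was tested with a normal test and Benjamini-Hochberg adjustment over all genes tested in both tables, which was tested on simulated data. Centring subtracted the median log2 change over genes of 10 FPKM or more in each group, and the length trend was a lowess fit (fraction 0.3) on the longest GENCODE M21 transcript. Python 3.11.15, pandas 2.3.3, scipy 1.17.1 and statsmodels 0.14.6 were used. Depth is unknown, so no counting interval is given. The 10 genes, every called gene of the related lists (up to 4 per list and comparison) and the 3 genes nearest to those called in the most tables are named. The genes and lists were chosen with earlier results of these data known. The calls of 1 gene of the helper-side list are not reported here.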

Additional observations from a re-analysis of the deposited data

Results flagged for a closer look

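For Lef1 the genotype effect in DP2 minus that in DP1 was -1.20 on the log2 scale. A test of the difference itself called it (recomputed q = 0.0429 over 10144 genes). The deposited values were 69.8 FPKM in Hdac3KO DP2 and 143.8 FPKM in WT DP2, against 68.7 FPKM in Hdac3KO DP1 and 61.7 FPKM in WT DP1. Computed from the stage tables, on the same libraries, the difference was -1.05 and not called (recomputed q = 0.0688), and with the length trend removed -1.38 (recomputed q = 0.0193). With the SE multiplied by 1.5 it was not called, nor was the difference of any other gene. Genotype and sex cannot be told apart in these groups. Groups of 2 libraries with 1 deposited value each do not allow a single library to be singled out.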

How the results depend on the processing

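No paired analysis was possible because the tables hold 1 value per group, and for the same reason no library could be left out in turn. Of 332 checks of the log2 changes of the 10 genes under other settings, 301 counted as unchanged. Only centring, removing the length trend and the log2(FPKM + 1) scale altered the log2 change itself. The other settings moved the threshold, the filter or the adjustment, so direction could not turn there. A gene not called could not gain a call at a q of 0.01 or less, at the 2-fold limit or with no filter on low values. Nor could a called gene lose its call at a q of 0.10 or less. Many of the checks counted as unchanged were thus fixed in advance, and their number does not measure robustness. On the log2(FPKM + 1) scale, unchanged meant a shift smaller than the SE, with no threshold applied. For genotype in DP1, the 2 calls became 1 at a q of 0.01 or less, 0 at no less than 2-fold, 1 when centred on the median gene, 0 with the length trend removed and 1 with no filter on low values. For genotype in DP2, the 3 calls became 2, without Prf1, in 4 settings. These were a q of 0.01 or less, centring on the median gene, removing the length trend and no filter on low values. For stage in WT, a q of 0.01 or less and the 2-fold limit each left 2 of 4 calls, Tox and Gzma. In Hdac3KO each left 1 of 3, which was Tox at a q of 0.01 or less and Gzma at the 2-fold limit. The 1 called difference between stages became 0 from the stage tables, 0 with the SE multiplied by 1.5, 0 at an adjusted p of 0.01 or less and 2 at 0.10 or less. Signs turned, with centring, for Tox by genotype in DP1 (0.020), Myb by genotype in DP2 (-0.044, and -0.034 without the length trend) and Runx1 by stage in WT (0.16), and without the length trend for the Gzma difference (-0.23), none of them called. Over all genes, centring turned the stage calls in WT to 1181 higher and 703 lower, against 603 and 1818 as deposited, and removing the length trend gave 839 and 466. For genotype in DP2, removing it gave 435 higher and 570 lower, against 687 and 461, and in DP1 it left 555 lower of 1358. A q of 0.01 or less left 376 higher and 242 lower for genotype in DP2, 639 and 661 in DP1, 94 higher for stage in Hdac3KO, and 290 and 931 in WT. The 2-fold limit left 351 higher for genotype in DP2, 618 higher and 594 lower of 1120 and 1358 in DP1, 103 of 182 higher for stage in Hdac3KO and 1159 lower in WT. The called differences over all genes, 211, became 93 without the length trend, 0 with the larger SE, 18 at an adjusted p of 0.01 or less and 581 at 0.10 or less. The cause was not tested. Depth is unknown, and low genes such as Zbtb7b and Runx3 are limited most.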

Other observations

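Markers of other cells were measured beside the 10 genes in the genotype tables. The 4 myeloid markers summed to 22.0 FPKM in Hdac3KO DP2 and 8.40 FPKM in WT DP2, and to 13.6 FPKM in Hdac3KO DP1 and 6.25 FPKM in WT DP1. Itgam, the CD11b gene, made that difference, with 15.7 FPKM in Hdac3KO DP2 and 1.60 FPKM in WT DP2 (q = 0.00134 in the authors' deposited table), while Cd68 had 3.43 FPKM in Hdac3KO DP2 and 3.43 FPKM in WT DP2. In DP1 Itgam had 9.58 FPKM in Hdac3KO and 2.40 FPKM in WT (q = 0.000879 in the authors' deposited table).

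The 5 double-negative thymocyte markers summed to 52.3 FPKM in Hdac3KO DP2 and 232.7 FPKM in WT DP2, and their called members moved in opposite directions. Hhex had 21.3 FPKM in Hdac3KO DP2 and 220.6 FPKM in WT DP2, and Il2ra, the CD25 gene, had 26.3 FPKM in Hdac3KO DP2 and 4.41 FPKM in WT DP2 (q = 0.00134 for each in the authors' deposited table). In DP1 Alas2, of the erythroid list, had 2.51 FPKM in Hdac3KO and 0.676 FPKM in WT (q = 0.0117 in the authors' deposited table). Psmb11, of the epithelial list, had 7.30 FPKM in Hdac3KO DP1 and 3.21 FPKM in WT DP1 (q = 0.00154 in the authors' deposited table). The other erythroid and epithelial markers were not called between genotypes. The 3 B cell markers stayed under 3 FPKM in sum and none was tested. The 9 DP markers summed to 6986 FPKM in Hdac3KO DP2 and 3019 FPKM in WT DP2, where 4 were called higher and 0 lower. In WT, 6 of the 9 were called lower in DP2 than in DP1, among them Cd4, Cd8b1 and Rag2, whose calls ended relative to the median gene. The part of these differences in the results above was not tested. These marker genes were singled out after their values were seen.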
